A study of Mus musculus with 22 samples.

Results

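Thymus from Aire-null mice was compared with thymus from mice that kept 1 working Aire allele. The comparison used 9 of the 22 samples of the series. The 6 Aire-null libraries were 3 from Aire-/- thymus and 3 from TG Aire-/- thymus, and they were set together against 3 libraries from TG Aire+/- thymus. TG marks the transgene, and the series title names the mice as dnTGFβRII Aire-/-, where dnTGFβRII is a dominant-negative type II TGF-β receptor. All 9 samples were labelled as whole thymus of untreated C57BL/6 mice aged 2 to 4 weeks. A wild-type thymus and an Aire+/- thymus without TG are not part of the comparison, so the Aire genotype and TG cannot be told apart between the TG Aire+/- and Aire-/- libraries, while TG Aire-/- and TG Aire+/- share the transgene. The labels do not say that replicates came from separate animals, and p-values therefore measure the spread between these samples, which may be partly technical. Of 24786 genes in the authors' table, 21083 were above 0 in at least 1 of the 9 libraries and were kept. The genes of interest were those whose 3 TG Aire+/- values all lay above all 6 Aire-null values.

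Aire is a transcriptional regulator of medullary epithelial cells of the thymus. These cells transcribe, each in small numbers, many genes whose products otherwise belong to single peripheral tissues, such as digestive enzymes, gut hormones, saliva proteins and keratins of skin. Developing T cells that bind peptides of these proteins strongly are deleted or diverted into regulatory T cells. Because medullary epithelial cells are rare in whole thymus, their tissue-restricted transcripts appear in bulk RNA at very low levels.

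Values were RPKM, read counts corrected for the length of each gene and for library size. Depth, inferred from the spacing of low values, was 22400000 to 29900000 reads per Aire-null library and 24800000 to 27900000 per TG Aire+/- library, and 3 reads on a gene of 2000 bases then correspond to 0.0502 to 0.067 RPKM. Genes above 0 numbered 17664 to 18664 per Aire-null library and 18845 to 18962 per TG Aire+/- library. Aire itself (GRCm38 chromosome 10, 78030022 to 78043610) was at 17.8 ± 9.64 RPKM in Aire-null thymus (SD, n = 6) and 11.6 ± 1.79 RPKM in TG Aire+/- thymus (SD, n = 3), a log2 difference of 0.40 with a limma adjusted p of 1. By group, Aire was at 27.2, 29.45 and 15.95 RPKM in Aire-/- libraries and 20.25, 6.50 and 7.63 RPKM in TG Aire-/- libraries, against 13.6, 10.9 and 10.2 RPKM in TG Aire+/- libraries. All 3 Aire-/- libraries and 1 TG Aire-/- library thus lay above every TG Aire+/- library. Reads by exon were not analysed here, and whether a disrupted allele gives these reads was not tested, so the gene total does not check the labels, and groups are named as labelled. Tgfbr2, the gene of the receptor that the transgene opposes, was at 21.1 ± 9.53 RPKM in Aire-null thymus (n = 6) and 17.9 ± 4.84 RPKM in TG Aire+/- thymus (n = 3).

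The library of TG Aire-/- replicate 1 stood apart from the other 8. Its 12 double-positive thymocyte genes (Rag1, Rag2, Cd4, Cd8a and others) summed to 229 RPKM, against 2026 to 2677 in the other 5 Aire-null libraries and 2499 to 2729 in TG Aire+/- libraries. Its 10 cortical epithelial genes summed to 167 RPKM, against 1238 to 1407 in the other Aire-null and 1224 to 1359 in TG Aire+/- libraries. In the other direction, its 9 adipocyte genes summed to 1092 RPKM, against 73.9 to 138 and 72.6 to 89.7 RPKM, and its 10 B cell genes to 287.5 RPKM, against 27.0 to 71.0 and 30.9 to 33.2 RPKM in the same groups. Main counts are therefore given with and without this library, and so are the list counts described that it moved by 1.5 times or more. A count of genes whose groups do not overlap can only rise, among the genes still kept, when a library is left out.

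**Figure D1:**
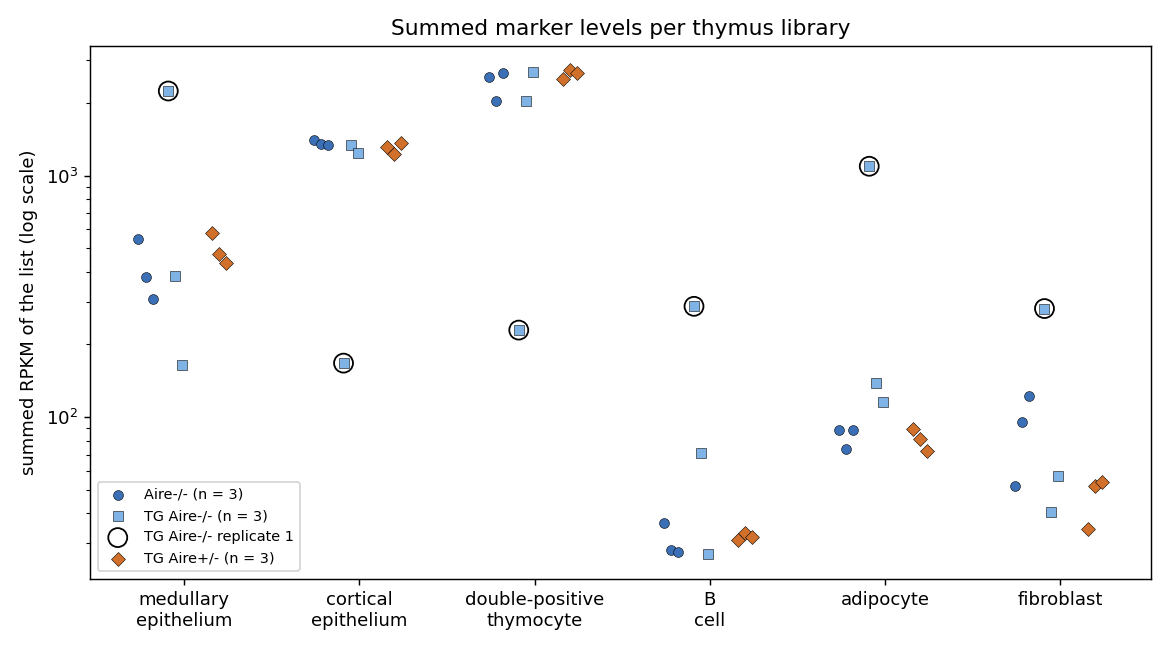
Summed RPKM of 6 marker lists in each thymus library, on a log scale. Circles and squares are the 3 Aire-/- and 3 TG Aire-/- libraries, diamonds the 3 TG Aire+/- libraries; the ringed TG Aire-/- replicate 1 is low for cortical epithelium (167) and double-positive thymocytes (229) and high for B cells (287.5) and adipocytes (1092).

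Among the genes that fell in Aire-null thymus were those of gut hormones, mucus, digestive enzymes, glandular secretions and mucosal keratins. In all, 390 genes (1.85% of the 21083 kept) had every TG Aire+/- value above every Aire-null value, and 43 genes (0.204%) had every Aire-null value above every TG Aire+/- value. Tested with limma on log2(RPKM + 1) with Benjamini-Hochberg adjustment over all kept genes, 57 genes (0.27%) fell in Aire-null thymus at an adjusted p under 0.05. No gene (0%) rose, while 62 genes were higher and 689 lower at an unadjusted p under 0.05. All 57 genes that fell were among the 390, but both counts come from the same values and neither supports the other. Leaving out TG Aire-/- replicate 1 gave 668 and 80 genes whose groups did not overlap, and 87 genes that fell, 51 of them among the 57, with 1 that rose. Other single libraries moved the count of falls as well: 29 genes fell without Aire-/- replicate 2 or without Aire-/- replicate 3, and 33 without TG Aire-/- replicate 2, while 3 rose without TG Aire-/- replicate 3.

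The genes concerned were transcripts of low abundance. The median of the mean level of the 390 genes in TG Aire+/- thymus was 0.264 RPKM, with quartiles of 0.0943 and 0.858, and 298 of them (76.4%) averaged under 1 RPKM, against 42.6% of all kept genes. In 93 of the 390 all 6 Aire-null libraries were listed at 0. These 93 could be kept only through TG Aire+/- thymus and had to differ in that direction. Among them were 17 of the 57 genes that fell (29.8%), such as Defa21, Cela3b, Csn1s2a, Sbp, Lcn8 and Trh. These 17 had no spread in Aire-null thymus, so their p-values rest on the spread of TG Aire+/- libraries and the intensity trend. Their zeros lower the spread that the fit shares over the groups, so these p-values are not to be ranked against those of other genes. At the inferred depth, the 384 genes with a known exon length had a median of 12.8 reads per TG Aire+/- library, and 84 of them had under 3 reads in some TG Aire+/- library. Per library, 192 to 245 of the 390 genes were above 0 in Aire-null thymus. With the kept genes limited to those of at least 1 RPKM in 3 libraries (12568 genes), 78 genes lay above in TG Aire+/- thymus, 16 lay above in Aire-null thymus, and limma called 0. In bulk tissue a smaller number of cells that hold a transcript and less of it per cell cannot be told apart.

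**Figure D2:**
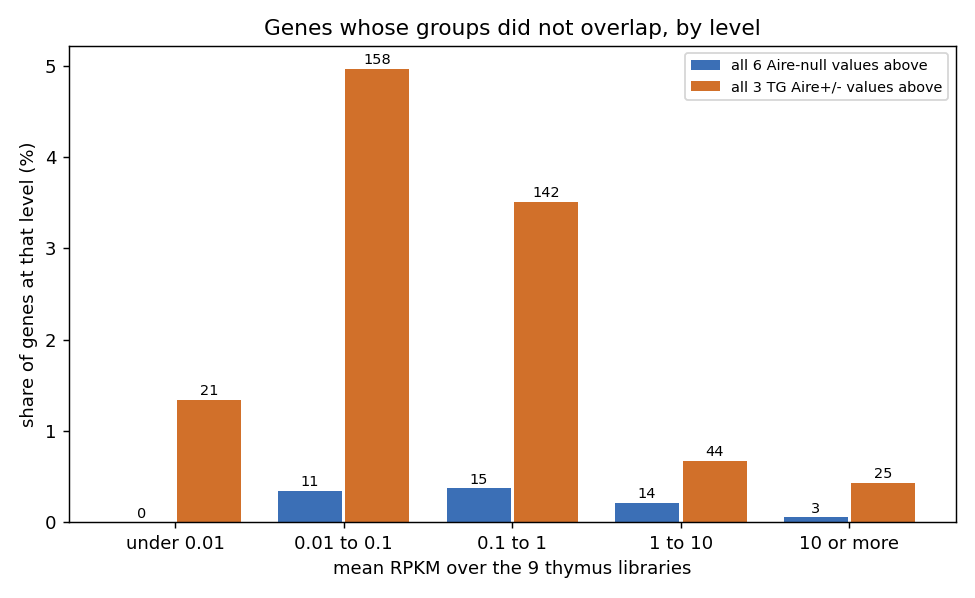
Share of kept genes whose groups did not overlap, by mean RPKM over the 9 thymus libraries, with the number of genes over each bar. Among genes averaging 0.01 to 0.1 RPKM, 11 had all 6 Aire-null values above and 158 had all 3 TG Aire+/- values above; among genes of 10 RPKM or more these were 3 and 25.

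**Figure D3:**
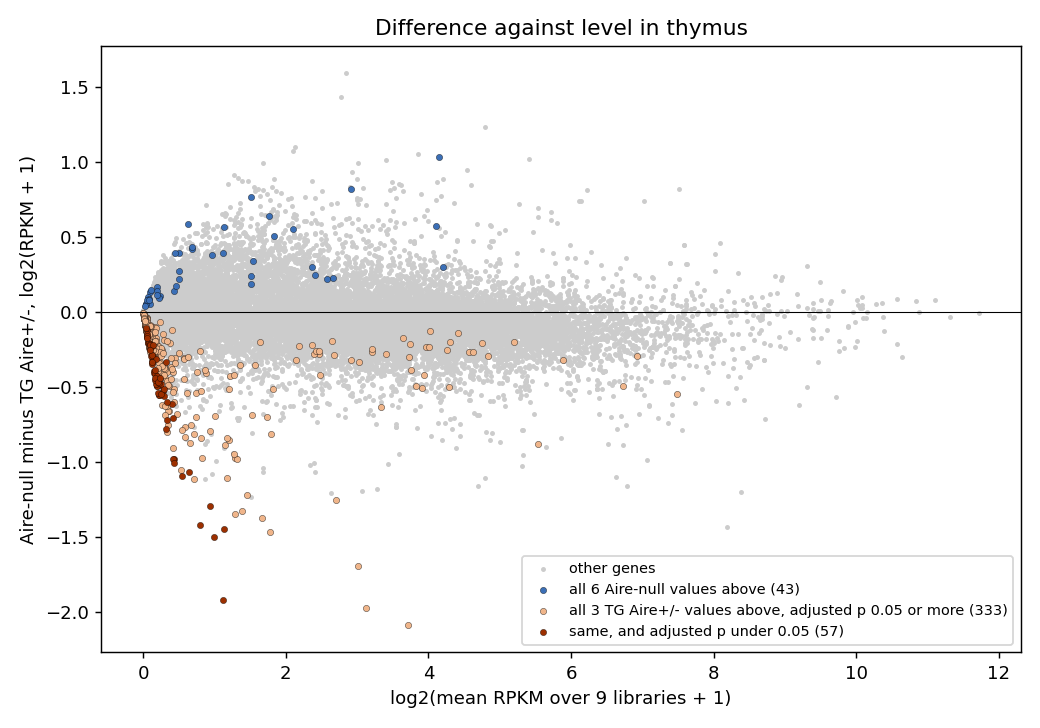
Fitted difference between Aire-null and TG Aire+/- thymus on the log2(RPKM + 1) scale against the log2 of the mean RPKM over 9 libraries plus 1, 1 point per kept gene. The 57 genes that fell sit at low levels, while the 43 genes with all Aire-null values above were not called.

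Hormones of the gut showed the largest called fall. Pyy, which encodes peptide YY of the enteroendocrine cells of the lower gut (chromosome 11, 102106676 to 102107832), ranged over 0 to 0.361 RPKM in the Aire-null libraries with a median of 0.0675, against 4.75, 3.02 and 2.15 RPKM in TG Aire+/- libraries. Every Aire-null library was thus under every TG Aire+/- library by several fold. Pyy fell by 1.93 on the log2(RPKM + 1) scale (SE 0.191, limma adjusted p = 0.00694). Gip, the incretin of the upper gut, was listed at 0 in 5 Aire-null libraries and at 0.175 RPKM in Aire-/- replicate 2, against 0.466, 0.978 and 0.679 RPKM in TG Aire+/- libraries (log2 −0.72, SE 0.0933, adjusted p = 0.024). Over all kept genes 1.85% lay above in TG Aire+/- thymus and 0.27% fell, the shares to set beside this list and each list below. Of 11 kept genes on the gut hormone list 4 did not overlap and 2 fell, and without TG Aire-/- replicate 1 these counts were 6 and 4. The remaining pair of these 4 was not called. Grp, gastrin-releasing peptide, was at 0.923 ± 0.693 RPKM in Aire-null thymus (n = 6) and 2.59 ± 0.306 RPKM in TG Aire+/- thymus (n = 3; adjusted p = 0.103), and Vip was listed at 0 in every Aire-null library and at 0.0422 ± 0.0165 RPKM in TG Aire+/- libraries.

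Antimicrobial proteins of the intestinal lining followed. Reg3b, a lectin that kills Gram-negative bacteria and comes from enterocytes and Paneth cells (chromosome 6, 78370657 to 78373466), ranged over 0 to 0.582 RPKM in Aire-null libraries, with a median of 0.225, against 2.23, 2.84 and 2.42 RPKM in TG Aire+/- libraries. It fell by 1.501 on the log2 scale (SE 0.141, adjusted p = 0.00546). Reg1, its neighbour on chromosome 6, a lectin of the exocrine pancreas and regenerating gut, was at 0 in 4 Aire-null libraries and no higher than 0.207 RPKM in the other 2, against 1.48, 1.36 and 0.939 RPKM in TG Aire+/- libraries (log2 −1.09, adjusted p = 0.00546). Reg3g had the largest difference of all 390 genes, −2.09 on the log2 scale, with 1.35 to 14.8 RPKM in Aire-null libraries (median 5.23) and 26.3, 18.3 and 27.1 RPKM in TG Aire+/- libraries. The groups did not overlap, but the spread among Aire-null libraries, with 14.8 RPKM in TG Aire-/- replicate 1, left it uncalled (SE 0.596, adjusted p = 0.581). Ang4, a Paneth cell ribonuclease, was at 0.165 ± 0.147 RPKM in Aire-null thymus (n = 6) and 1.57 ± 0.719 RPKM in TG Aire+/- thymus (n = 3), just past the threshold (adjusted p = 0.0512). The α-defensin Defa21, an antimicrobial peptide of Paneth cells, was listed at 0 in all 6 Aire-null libraries and at 0.424, 0.371 and 0.388 RPKM in TG Aire+/- libraries (adjusted p = 0.000257). Defa33 was likewise listed at 0 and at 0.94, 0.349 and 0.937 RPKM (adjusted p = 0.0373), and as near-identical copies these defensins are uncertain as single genes. On the Paneth and gut antimicrobial list, which does not hold Defa33, 5 of 15 kept genes did not overlap and 3 fell (Reg3b, Reg1 and Defa21).

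Genes of mucus-producing cells had the highest share without overlap among the 29 tissue lists, 5 of 11 (45.5%), of which 3 fell. Tff3, the trefoil factor that goblet cells secrete with mucin (chromosome 17, 31125306 to 31129646), ranged over 0.169 to 0.749 RPKM in Aire-null libraries with a median of 0.414, against 3.03, 3.01 and 2.36 RPKM in TG Aire+/- libraries. It fell by 1.45 on the log2 scale (SE 0.136, adjusted p = 0.00546). Clca1, a secreted protease of goblet cells, ranged over 0.0136 to 0.269 RPKM in Aire-null libraries, against 0.704, 0.565 and 0.903 RPKM in TG Aire+/- libraries (log2 −0.62, adjusted p = 0.0232). Zg16, a goblet cell lectin, ranged over 0 to 0.149 RPKM and stood at 0.741, 0.454 and 0.414 RPKM in the same groups (adjusted p = 0.029). Spink4, a protease inhibitor of goblet cells, and Agr2, a chaperone of mucin folding, were not called (adjusted p = 0.252 and 0.558). Neither Aire-null group overlapped TG Aire+/- thymus at any of these genes. The summed level of all 11 genes did overlap. It was 4.665 to 45.88 RPKM (median 24.23) in Aire-null libraries and 18.96 to 26.56 RPKM (median 22.05) in TG Aire+/- libraries.

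Of 15 kept stomach genes 2 did not overlap and 1 fell, and without TG Aire-/- replicate 1 these counts were 3 and 2. Pgc, which encodes the stomach protease precursor progastricsin (chromosome 17, 47726842 to 47734482), was listed at 0 in 5 Aire-null libraries and at 0.0107 RPKM in Aire-/- replicate 3, against 0.724, 1.34 and 0.932 RPKM in TG Aire+/- libraries. It fell by 0.98 on the log2 scale (SE 0.0833, adjusted p = 0.00442). Tff2, the gastric trefoil factor beside Tff3, was at 0.166 ± 0.16 RPKM in Aire-null thymus (n = 6) and 1.02 ± 0.404 RPKM in TG Aire+/- thymus (n = 3) and was not called (adjusted p = 0.122). Absorptive enterocyte genes gave 3 of 16 without overlap, namely Fabp1, Vil1 and Sis, and none fell (0, and 0 without TG Aire-/- replicate 1, where 8 did not overlap). Fgf15, the ileal hormone that restrains bile acid synthesis, was not on a list. It was at 0.0042 ± 0.00829 RPKM in Aire-null thymus (n = 6) and 0.186 ± 0.0581 RPKM in TG Aire+/- thymus (n = 3; log2 −0.24, adjusted p = 0.0212).

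Pancreatic enzymes and their helpers gave 7 of 26 kept genes above in TG Aire+/- thymus and 1 the other way, and 3 fell. Pla2g1b, pancreatic phospholipase A2, did not exceed 0.0156 RPKM in any Aire-null library, against 0.431, 0.42 and 0.578 RPKM in TG Aire+/- libraries (log2 −0.55, SE 0.0365, adjusted p = 0.00119). Clps, the colipase that anchors pancreatic lipase, ranged over 0 to 0.145 RPKM in Aire-null libraries, against 0.582, 0.495 and 0.505 RPKM in TG Aire+/- libraries (log2 −0.53, adjusted p = 0.0119). The elastase gene Cela3b was listed at 0 in all 6 Aire-null libraries and at 0.356, 0.37 and 0.222 RPKM in TG Aire+/- libraries (adjusted p = 0.00546). Spink1, the trypsin inhibitor, was at 1.14 ± 0.912 RPKM in Aire-null thymus (n = 6) and 4.25 ± 0.584 RPKM in TG Aire+/- thymus (n = 3), and Prss2, a trypsinogen, at 1.41 ± 0.628 and 2.78 ± 0.054 RPKM in the same groups. Neither was called (adjusted p = 0.174 and 0.581). Cela1, another elastase, was the exception among all tissue lists, with 2.36 to 4.33 RPKM in Aire-null libraries and 1.33, 1.79 and 2.22 RPKM in TG Aire+/- libraries (adjusted p = 1).

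Of 15 kept islet genes 3 did not overlap and none (0) fell, and without TG Aire-/- replicate 1 these counts were 5 and 1. Iapp, islet amyloid polypeptide, which beta cells release with insulin, was at 0.686 ± 0.815 RPKM in Aire-null thymus (n = 6) and 2.98 ± 0.423 RPKM in TG Aire+/- thymus (n = 3; adjusted p = 0.402). Its highest Aire-null value, 2.28 RPKM, was that of TG Aire-/- replicate 1. Gcg, the glucagon precursor, was at 0.151 ± 0.138 and 0.761 ± 0.346 RPKM in the same groups, and Sst, somatostatin, at 0.032 ± 0.0531 and 0.638 ± 0.451 RPKM. The insulin gene Ins2, looked up after its values were seen, did overlap, with 0 in 5 Aire-null libraries and 0.13 RPKM in Aire-/- replicate 2, against 1.09, 0.067 and 0.391 RPKM in TG Aire+/- libraries.

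Secretory products of salivary, lacrimal, mammary, prostate and airway epithelium formed a further set. On the salivary and lacrimal list 8 of 20 kept genes (40.0%) did not overlap, 9 without TG Aire-/- replicate 1, and 4 fell. Mucl1, a mucin-like glycoprotein of glandular secretions, was listed at 0 in 4 Aire-null libraries and reached 0.173 RPKM in Aire-/- replicate 3, against 0.318, 0.551 and 0.444 RPKM in TG Aire+/- libraries (adjusted p = 0.0405). The other 3 that fell, the demilune cell protein gene Dcpp2 and the BPI-fold genes Bpifb9a and Bpifb9b, were listed at 0 in all 6 Aire-null libraries and averaged 0.275, 0.11 and 0.262 RPKM in TG Aire+/- libraries. Dcpp2 has near-identical neighbours and is uncertain as a single gene. The airway member of the BPI-fold family, Bpifb1, fell as well, with at most 0.0854 RPKM in Aire-null libraries and 0.23, 0.353 and 0.221 RPKM in TG Aire+/- libraries (adjusted p = 0.0277).

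The casein gene Csn1s2a was listed at 0 in every Aire-null library and at 0.562, 0.297 and 0.385 RPKM in TG Aire+/- libraries (log2 −0.50, adjusted p = 0.00896), the called member among 3 of 8 milk genes that did not overlap. Csn2, the most abundant of the caseins here and looked up after its values were seen, went against this pattern. It was at 47.4, 48.7 and 41.1 RPKM in Aire-/- libraries, 26.0, 5.88 and 8.09 RPKM in TG Aire-/- libraries, and 17.3, 24.4 and 32.9 RPKM in TG Aire+/- libraries. The pooled difference was −0.09 on the log2 scale (adjusted p = 1), with the TG Aire+/- values between those of the 2 Aire-null groups save TG Aire-/- replicate 1. The gene of spermine-binding protein, a secretion of the mouse prostate, fell with its neighbour. Sbp and the adjacent Sbpl (chromosome 17, 23941672 to 23945607 and 23953084 to 23955274) were listed at 0 in all 6 Aire-null libraries. Sbp stood at 0.383, 0.415 and 0.576 RPKM in TG Aire+/- libraries (adjusted p = 0.00203) and Sbpl at 1.38, 1.15 and 0.595 RPKM (adjusted p = 0.0116).

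**Figure D4:**
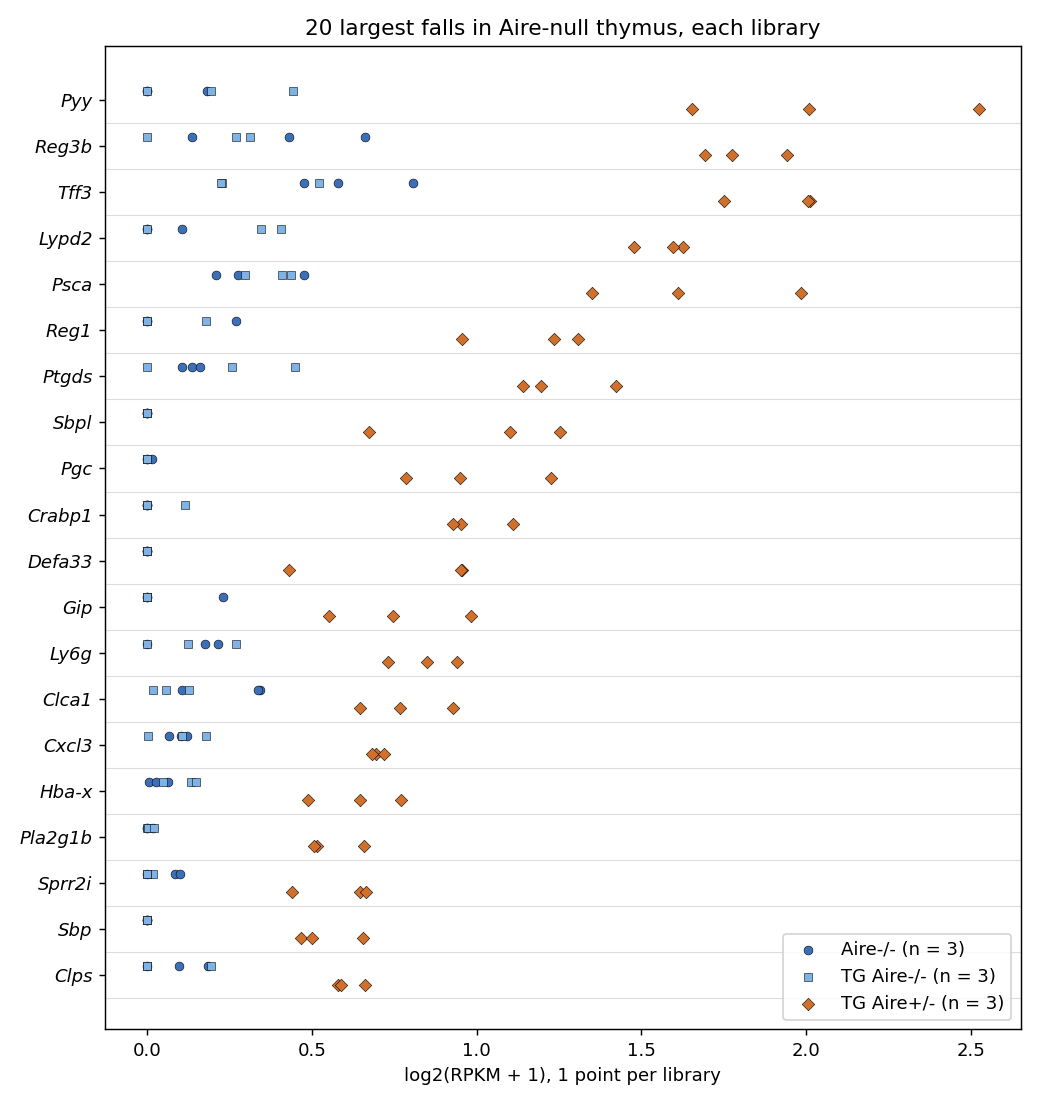
The 20 largest called falls, with each library as a point on the log2(RPKM + 1) scale; circles are Aire-/-, squares TG Aire-/- and diamonds TG Aire+/- libraries (n = 3 each). In each of the 20 genes the 6 Aire-null points lie left of the 3 TG Aire+/- points, as the choice of these genes requires.

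Epithelia that line the mouth, oesophagus and forestomach were represented by keratins and surface proteins, with 5 of 13 kept genes (38.5%) not overlapping, 7 without TG Aire-/- replicate 1, and 3 that fell. Lypd2, a small Ly6-family surface protein (chromosome 15, 74732247 to 74734329), was listed at 0 in 3 Aire-null libraries and reached 0.326 RPKM in TG Aire-/- replicate 2, against 2.08, 2.02 and 1.79 RPKM in TG Aire+/- libraries. It fell by 1.42 on the log2 scale (SE 0.101, adjusted p = 0.00154). The neighbouring Psca, another Ly6-family surface protein, of bladder, stomach and prostate epithelium (chromosome 15, 74714839 to 74717069), ranged over 0.157 to 0.392 RPKM in Aire-null libraries, against 2.96, 2.05 and 1.55 RPKM in TG Aire+/- libraries (log2 −1.30, adjusted p = 0.0119), and it was the called gene of 2 without overlap among 6 of the bladder urothelium list. Krt4 and Krt13, which pair in the filaments of mucosal epithelium, are encoded on chromosomes 15 and 11. Krt4 averaged 0.0219 ± 0.0243 RPKM in Aire-null thymus (n = 6) and 0.376 ± 0.0404 RPKM in TG Aire+/- thymus (n = 3; adjusted p = 0.00119). Krt13 averaged 0.0145 ± 0.0311 and 0.329 ± 0.0874 RPKM in the same groups (adjusted p = 0.0119).

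In cornified skin 6 of 35 kept genes did not overlap, 10 without TG Aire-/- replicate 1, and 1 fell. That was Sprr2i, a cross-linked envelope protein (chromosome 3, 92407991 to 92409271), with 0 to 0.0726 RPKM in Aire-null libraries and 0.357, 0.565 and 0.586 RPKM in TG Aire+/- libraries (log2 −0.55, SE 0.0527, adjusted p = 0.00592). Krt1, the keratin of cells that leave the basal layer, was at 0.0941 ± 0.0272 RPKM in Aire-null thymus (n = 6) and 0.476 ± 0.199 RPKM in TG Aire+/- thymus (n = 3), without a call (adjusted p = 0.11). Sprr2a1, the relative of Sprr2i with far higher levels (looked up after its values were seen), overlapped: it was at 19.3, 21.1 and 11.7 RPKM in Aire-/- libraries, 3.12, 2.00 and 2.19 RPKM in TG Aire-/- libraries, and 10.5, 15.2 and 11.4 RPKM in TG Aire+/- libraries. Outside the lists Krt9, the keratin of palms and soles, and Krt84, a hard keratin of nail and tongue, also fell (adjusted p = 0.00471 and 0.0297). Hair follicle keratins Krt25, Krt71 and Krt73 did not overlap but were not called, while without TG Aire-/- replicate 1 the hair list had 4 genes without overlap and 1 that fell.

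Reproductive, endocrine and nervous tissue contributed single genes. In epididymis 3 of 8 kept genes did not overlap and Lcn8, a lipocalin of the proximal duct, fell, being listed at 0 in all 6 Aire-null libraries and at 0.108, 0.143 and 0.131 RPKM in TG Aire+/- libraries (adjusted p = 0.00546). Trh, the precursor of thyrotropin-releasing hormone, was listed at 0 in all 6 Aire-null libraries and at 0.234, 0.168 and 0.175 RPKM in TG Aire+/- libraries (adjusted p = 0.00442). Nefl, the light neurofilament of axons, averaged 0.0127 ± 0.0161 RPKM in Aire-null thymus (n = 6) and 0.179 ± 0.0371 RPKM in TG Aire+/- thymus (n = 3; adjusted p = 0.0126), the single gene without overlap among 16 of the nervous system. The egg coat gene Zp3 and the oocyte gene Nlrp5 were listed at 0 in all 6 Aire-null libraries and averaged 0.176 and 0.0217 RPKM in TG Aire+/- libraries, without a call. The tooth enamel gene Amelx (adjusted p = 0.202), the lens gene Crybb2 (adjusted p = 0.0514), the sperm enzyme gene Ldhc and the placental gene Prl2c2 lay above in TG Aire+/- thymus without a call. Without TG Aire-/- replicate 1 the testis, oocyte and eye lists had 3 genes each without overlap, against 1, 2 and 1 with it. Liver, skeletal muscle, heart, and thyroid and parathyroid lists held no gene (0 of 23, 12, 8 and 8 kept) whose groups failed to overlap in either direction. For liver and heart this rested on TG Aire-/- replicate 1, since without it 2 liver genes and 2 heart genes lay above in TG Aire+/- thymus and none (0) fell, while the muscle and thyroid lists stayed at 0. These counts cover the listed genes only. Off these lists, the muscle myosin genes Myh3 and Myh8 and the liver genes Slc10a1 and Mat1a lay above in TG Aire+/- thymus, without a call.

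Over the 29 tissue lists together (a gene on several counts once), 76 of 394 kept genes (19.3%) lay above in TG Aire+/- thymus, against 1.85% of all kept genes, and 1 lay above in Aire-null thymus. That share varied with level, at 4.97% of all kept genes averaging 0.01 to 0.1 RPKM and 3.51% of those at 0.1 to 1 RPKM. Of the 394, 66 averaged at least 1 RPKM. Of the 394, 27 fell, and 33 without TG Aire-/- replicate 1, where 107 did not overlap. Without Aire-/- replicate 2, 17 fell. The median difference of the 394 was −0.09 on the log2 scale, against −0.02 for all 21083 kept genes. Of the 394, 319 had a lower estimate in Aire-null thymus, as had 12727 of the 21083. In 69 of the 394 genes all 6 Aire-null libraries were at 0, 23 of them among the 76, and such genes could be kept only through TG Aire+/- thymus. The lists were drawn up with earlier results of these data known.

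**Figure D5:**
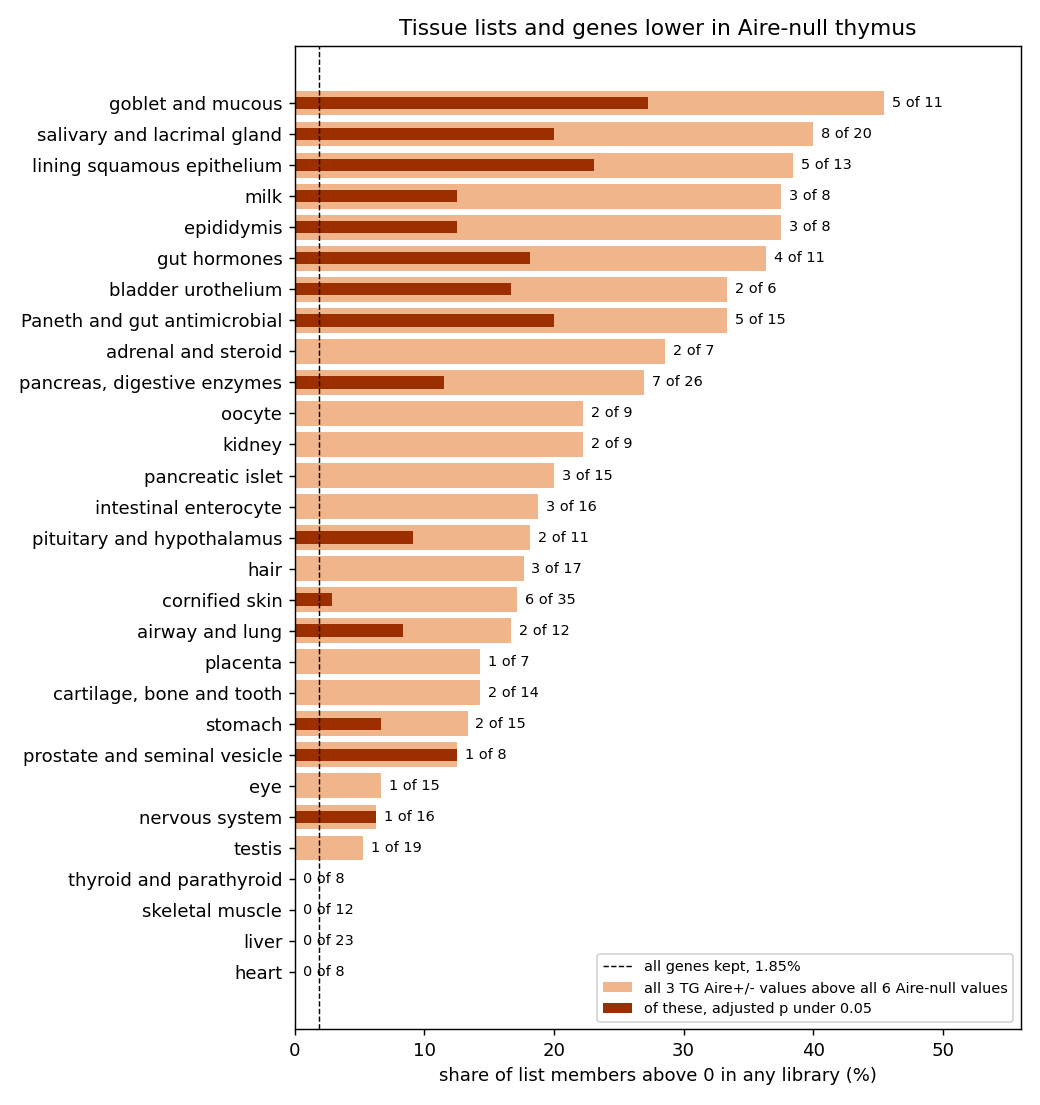
Share of kept members of each of the 29 tissue lists whose 3 TG Aire+/- values all lay above all 6 Aire-null values (pale bars, with counts), and the share that also fell at an adjusted p under 0.05 (dark bars). The dashed line is the share over all kept genes, 1.85%. Mucus-producing cells are at the top with 5 of 11, and the lists of liver, skeletal muscle, heart, and thyroid and parathyroid have 0.

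The other 30 of the 57 genes that fell were on none of these lists, and those described here were chosen after their values were seen. Ptgds, the prostaglandin D synthase of brain membranes and epididymis (chromosome 2, 25466709 to 25470046), ranged over 0 to 0.364 RPKM in Aire-null libraries, against 1.68, 1.29 and 1.21 RPKM in TG Aire+/- libraries (log2 −1.07, SE 0.106, adjusted p = 0.00694). Crabp1, a cytoplasmic carrier of retinoic acid (chromosome 9, 54764748 to 54773110), was listed at 0 in 5 Aire-null libraries and at 0.0833 RPKM in TG Aire-/- replicate 1, against 0.937, 1.16 and 0.904 RPKM in TG Aire+/- libraries (log2 −0.98, SE 0.0513, adjusted p = 0.00058). Hba-x, an α-like globin of the embryo (chromosome 11, 32276400 to 32278116), averaged 0.0517 ± 0.0421 RPKM in Aire-null thymus (n = 6) and 0.559 ± 0.151 RPKM in TG Aire+/- thymus (n = 3; adjusted p = 0.00951). Bglap2, of the osteocalcin cluster of bone, fell with an adjusted p of 0.024, and its neighbour Bglap did not (0.308). Mbl2, a lectin that liver secretes into serum, fell too (adjusted p = 0.0412), as did Rhcg, an ammonia transporter of the kidney (0.025), Gpr50, a hypothalamic receptor (0.0101), and H2-M10.5, a class I-like gene of the vomeronasal organ (0.00501).

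Products of white blood cells were among the 57 as well. Ly6g, the surface marker of mouse neutrophils, ranged over 0 to 0.207 RPKM in Aire-null libraries, against 0.659, 0.801 and 0.92 RPKM in TG Aire+/- libraries (log2 −0.71, adjusted p = 0.0119). Cxcl3, a chemokine that draws neutrophils, ranged over 0.00221 to 0.132 RPKM, against 0.62, 0.646 and 0.605 RPKM (log2 −0.60, SE 0.0425, adjusted p = 0.00154). The mast cell and basophil proteases Prss34 and Cma2 fell at adjusted p values of 0.0238 and 0.0212. Gsdmc2 and Gsdmc3, neighbouring gasdermin genes of gut epithelium, fell together (adjusted p = 0.00546 and 0.021), and as close copies they are uncertain as single genes.

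Members of the 390 often lay next to each other in the genome. Of the 384 with a position, 138 (35.9%) had another member within 200000 bases, against 12.9% of other kept genes (2605 of 20246) that had a member within that distance. Of the 43 genes of the opposite direction, 4 (9.3%) had a neighbour of their own kind. That share cannot be set against the other 2 shares, since 43 genes offer fewer such neighbours than 390. Neighbours share sequence in many of these families, so reads can be split among copies and such genes are not independent. The largest cluster was the type II keratin locus of chromosome 15, with 10 members between 101525026 and 101924735. Clusters of 5 were kallikreins on chromosome 7 (43768897 to 44211754), small proline-rich genes on chromosome 3 (92122204 to 92438789), lipocalins with Ptgds and Obp2a on chromosome 2 (25466709 to 25780279), and Prss32, Dcpp2, Dcpp3, Sbp and Sbpl on chromosome 17 (23843855 to 23955274). By symbol, the 390 held 12 of 53 kept keratins, 5 of 27 kallikreins, 4 of 14 BPI-fold genes and 3 of 7 Reg genes, against 1.85% of all kept genes. Shares were lower for Cyp (5 of 91, 5.49%), Serpin (2 of 60, 3.33%), Slc (7 of 368, 1.9%) and Gm symbols (14 of 921, 1.52%). Olfactory receptors gave 0 of 146, where the share of all kept genes would give few, so this 0 is not read as a lack. Near Aire itself, 6 of 299 kept genes within 10000000 bases were members (2.01%), close to the 1.85% of all kept genes, and none (0) of them was called. One of the 6, the DNA glycosylase gene Tdg, was at 3.7 ± 1.64 RPKM in Aire-null thymus (n = 6) and 13.8 ± 3.62 RPKM in TG Aire+/- thymus (n = 3; adjusted p = 0.0512), and the predicted gene Gm9855 showed almost the same values, so the pair was not told apart.

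Promoter windows from RefSeq (GRCm38.p6, 250 bases before to 50 after the start) are shown for 4 of the genes that fell, chosen after their letters were seen to show a window with a TATAAA box in 3 tissues (gut, stomach, skin) and a window without one. TATAAA and its reverse complement TTTATA were searched on both strands, and capitals mark a match. In Reg3b (chr6:78370635-78370934, plus strand) the box begins 29 bases before the start, in Pgc (chr17:47726592-47726891, plus strand) 31 bases and in Sprr2i (chr3:92407741-92408040, plus strand) 29 bases before it. Crabp1 (chr9:54764498-54764797, plus strand) has no match in its window and holds 17 CG pairs, against 3, 9 and 2 in the windows of Reg3b, Pgc and Sprr2i.
Reg3b: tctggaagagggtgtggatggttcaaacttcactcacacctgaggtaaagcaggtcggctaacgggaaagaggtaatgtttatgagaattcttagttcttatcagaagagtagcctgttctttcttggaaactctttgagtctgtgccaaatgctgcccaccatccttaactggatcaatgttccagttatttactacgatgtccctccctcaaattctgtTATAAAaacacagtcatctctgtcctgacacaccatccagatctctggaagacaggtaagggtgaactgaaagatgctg
Pgc: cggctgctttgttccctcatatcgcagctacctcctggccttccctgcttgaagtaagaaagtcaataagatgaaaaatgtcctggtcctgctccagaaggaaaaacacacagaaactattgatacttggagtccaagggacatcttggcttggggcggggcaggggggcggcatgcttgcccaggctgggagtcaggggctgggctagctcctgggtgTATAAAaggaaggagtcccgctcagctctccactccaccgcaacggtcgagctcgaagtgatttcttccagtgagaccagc
Sprr2i: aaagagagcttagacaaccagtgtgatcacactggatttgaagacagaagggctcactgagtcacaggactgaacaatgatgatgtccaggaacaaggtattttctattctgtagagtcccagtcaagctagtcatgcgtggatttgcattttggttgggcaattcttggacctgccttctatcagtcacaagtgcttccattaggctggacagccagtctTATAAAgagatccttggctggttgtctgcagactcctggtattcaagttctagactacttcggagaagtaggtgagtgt
Crabp1: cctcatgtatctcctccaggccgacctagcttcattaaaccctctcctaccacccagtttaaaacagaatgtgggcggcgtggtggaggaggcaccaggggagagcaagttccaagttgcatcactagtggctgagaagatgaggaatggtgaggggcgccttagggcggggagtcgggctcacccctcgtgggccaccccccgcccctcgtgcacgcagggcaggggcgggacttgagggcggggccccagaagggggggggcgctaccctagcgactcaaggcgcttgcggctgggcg
Of 32851 such windows in the RefSeq table, 13.6% hold TATAAA on either strand and 2.4% hold it on the gene's own strand beginning 16 to 50 bases before the start. A share over the 390 genes is not given, because 298 of them (76.4%) had a window, fewer than the 80% set for such a check.

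The transcripts were also scarce in the other tissues of the series. In the 3 libraries of liver CD8+ T cells 148 of the 390 (37.9%) were listed at 0 throughout, against 14.5% of all kept genes, and 66 (16.9%) reached 1 RPKM in at least 1 of them, against 53.8%. In Aire+/+ liver 80 of the 390 (20.5%) averaged at least 1 RPKM, against 49.0% of all kept genes. These tables were normalised separately from the thymus table, and the shares are given as levels without a test. The 390 were low in thymus too, where 23.6% averaged at least 1 RPKM in TG Aire+/- libraries, against 57.4% of all kept genes. No share matched for level was drawn, so the scarcity is not read as particular to these genes. Some members were not scarce there. Dr1 was at 21.0 to 22.5 RPKM in the CD8+ T libraries, and Reg1 reached 10.8 RPKM in a CD8+ T library. In Aire+/+ liver Fabp1 averaged 1399.6 RPKM and Tff3 10.0 RPKM.

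The thymus's own cell types were described in the same way. Over 17 lists of thymic and blood cell types, 4 of 145 kept genes (2.76%) lay above in TG Aire+/- thymus, none (0) fell at an adjusted p under 0.05, and the median difference was 0.04. Without TG Aire-/- replicate 1, 10 did not overlap and 3 fell, among them the chemokine genes Ccl20 and Ccl22. Cd4, the coreceptor of helper T cells, was at 48.4 to 205.4 RPKM in Aire-null libraries and 209.9, 217.5 and 213.6 RPKM in TG Aire+/- libraries, and the interferon-induced Ifit1 and Oasl2 averaged 7.56 and 11.5 RPKM in Aire-null thymus and 12.3 and 16.6 RPKM in TG Aire+/- thymus. None of these 3 was called. The interferon-stimulated list, which holds Ifit1 and Oasl2, had 2 of 13 genes without overlap (15.4%), and 4 without TG Aire-/- replicate 1. Of its 13 genes 12 had lower estimates in Aire-null thymus, as had 12727 of all 21083 kept genes. The list's median log2 difference was −0.38, and −0.56 without TG Aire-/- replicate 1, and none (0) fell either way. Its genes summed to 93.0 to 125.7 RPKM in 5 Aire-null libraries and 193.5 RPKM in TG Aire-/- replicate 1, against 143.9 to 173.8 RPKM in TG Aire+/- libraries.

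Markers of medullary epithelium, the cells that hold Aire, were not level across the libraries. The 15 genes of that list summed to 547, 380.5 and 308 RPKM in Aire-/- libraries and 2237, 384 and 165 RPKM in TG Aire-/- libraries, against 575.5, 474 and 436 RPKM in TG Aire+/- libraries. Of the 15, 12 had lower estimates in Aire-null thymus, as had 12727 of all 21083 kept genes. The list's median log2 difference was −0.24, and −0.45 without TG Aire-/- replicate 1. All 15 averaged at least 1 RPKM over the 9 libraries. Fezf2, a transcription factor that drives another part of the tissue-restricted genes in these cells, was at 1.92 to 8.60 RPKM in Aire-null libraries and 9.99, 7.23 and 7.14 RPKM in TG Aire+/- libraries (adjusted p = 1). The part of medullary cell content in the lower tissue-restricted transcripts was not tested. The medullary list holds the chemokine genes Ccl21a and Ccl19. TG Aire-/- replicate 1 was also high on the lymph node stroma list, which holds Cxcl13, Madcam1 and Ccl21b. That list summed to 651 RPKM there, against 33.6 to 99.3 RPKM in the other Aire-null and 78.6 to 132 RPKM in TG Aire+/- libraries. What part of the 2237 RPKM came from medullary cells was not tested.

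Of the 43 genes of the opposite direction 1 was on a tissue list (Cela1), 42 were on no list, and limma called none (0). The 5 with the largest differences were Igfbp3, Pcolce, Fam167b, Tns2 and Fabp7, with adjusted p = 1 for each. Igfbp3, a binding protein of insulin-like growth factors (chromosome 11, 7206086 to 7213923), was at 7.9 to 11.2 RPKM in 5 Aire-null libraries and 85.7 RPKM in TG Aire-/- replicate 1, against 4.07, 6.97 and 7.58 RPKM in TG Aire+/- libraries. Pcolce, which enhances collagen processing, was at 3.72 to 6.96 RPKM and at 21.6 RPKM in that library, against 3.47, 3.41 and 3.39 RPKM in TG Aire+/- libraries. TG Aire-/- replicate 1 held the highest Aire-null value in 25 of the 43 genes, and in 67 of the 297 genes of the first kind that were above 0 in an Aire-null library. Fibroblast genes, which include collagens, summed to 40.4 to 122 RPKM in the other 5 Aire-null libraries, 281 RPKM in TG Aire-/- replicate 1 and 34.5 to 53.8 RPKM in TG Aire+/- libraries, and their part in these differences was not tested.

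The 2 Aire-null groups differ in TG and were set against each other. No gene (0%) differed between TG Aire-/- and Aire-/- thymus by limma, with 1489 of 21083 (7.06%) at an unadjusted p under 0.05. Leaving out a library gave 13 genes without Aire-/- replicate 1, 17 without TG Aire-/- replicate 1 and 5 without TG Aire-/- replicate 3. With all libraries, 15 of the 390 genes (3.85%) were at an unadjusted p under 0.05 by limma and none (0) was called. The smallest adjusted p among the 390 was 0.662, but the choice of these genes bears on all of these values. All 6 of their Aire-null values had to lie under TG Aire+/- thymus, and in 93 of the 390 they were all 0 and could not differ. A p that misses the threshold does not show that the groups were alike: Sprr2a1 came closest of all genes with a difference of −2.39 on the log2 scale (adjusted p = 0.0972). Both groups were set against the same TG Aire+/- libraries, so their differences from it are not independent. For the 57 genes that fell, the median difference was −0.45 for TG Aire-/- and −0.42 for Aire-/- thymus. The choice of these genes on the pooled fall without overlap made both medians negative and bound their sizes together, so they say nothing about whether the falls depend on TG. For Pyy these were −1.85 (SE 0.22) and −2.001 (SE 0.22), and for Crabp1 −0.96 and −0.997.

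Genes just inside the rule were close to overlap. Dr1, a repressor of transcription initiation, reached 30.05 RPKM in its highest Aire-null library and 30.05 RPKM in its lowest TG Aire+/- library at the precision printed, and Gm5478, Myt1, 4930502E18Rik and Tph2 had lowest TG Aire+/- values between 0.000499 and 0.0323 RPKM. Just outside were Teddm3, Alg14, Gsdma2, Cwh43 and Nyap2. Alg14, an enzyme of protein glycosylation, had a highest Aire-null value of 7.581 RPKM and a lowest TG Aire+/- value of 7.579 RPKM. With a gap of at least 0.1 RPKM required between the groups, 7 genes lay above in Aire-null thymus and 143 in TG Aire+/- thymus.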

How the data were processed

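The authors deposited RPKM values per gene for 24786 genes in a table for thymus and in separate tables for liver and liver CD8+ T cells. Per the submitters' processing notes, the aligner was among the tools named (STAR 2.5.2b) and the build was mm10. For annotation, counting tool and strand use the sources used here give nothing, so overlapping and near-identical genes are uncertain as single genes. Read depth is not given either. It was inferred from the spacing of low RPKM values, of which 44.4% to 49.0% were whole reads within 0.1 read where chance gives 20%, too few for a count test. Floors cover counting error only.

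Columns were matched to samples by name and grouped from the titles. Genes above 0 in any of the 9 thymus libraries were kept, and no further scaling was applied. log2(RPKM + 1) was fitted with limma 3.58.1 in R 4.3.3 (3 group means, eBayes with an intensity trend, two-sided), with the contrast of the mean of both Aire-null groups minus TG Aire+/-. Benjamini-Hochberg adjustment ran over 21083 genes, and an adjusted p under 0.05 was called. Adding 1 before the log shrinks the changes of low genes, and genes at 0 in both Aire-null groups add no spread of their own there. On data simulated for this comparison over the 21083 genes (10 runs, 200 changed genes), recovery was 29.1% at a log2 change of 0.5, 53.4% at 1 and 86.2% at 2, and 7.23% of calls were false. The simulation used normal noise and drew the changed genes from all levels. Its rates need not hold for the low genes called here, some of which were at 0 in all Aire-null libraries. Positions are from GENCODE vM21 on GRCm38.

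The members, gene lists and tests were chosen with earlier results of these data known. Named genes were Aire, Tgfbr2, the 20 largest called falls without overlap, the 5 largest differences of the opposite kind (no rise was called), up to 4 genes without overlap per tissue list, thymic list genes without overlap, and the 5 genes on each side of the rule. A thymic list gene that this rule names is not reported here. Others were named after their values were seen: the remaining genes that fell, genes of clusters and counterexamples. Alternatives were another pseudocount, 2 filters, upper-quartile scaling, the Aire-null samples as 1 group, no trend, robust variances, a replicate block, sex as a covariate, a minimum gap and each library left out. Sex was read from Xist and Y-linked genes, and each group held both sexes.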

Additional observations from a re-analysis of the deposited data

Results flagged for a closer look

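In 23 of the 92 named genes 1 of the 6 Aire-null libraries stood far from the other 5 by Dixon's 95% limit. Chance alone gives this in about 1 of 20 genes where values are independent and normal. RPKM with many zeros are not, and 1 value above 0 among 5 zeros always passes. The named genes were also chosen partly on these values, so the 23 are not read as an excess over chance. In 14 of the 23 the library was TG Aire-/- replicate 1. It was high for Igfbp3 (85.71 RPKM), Pcolce (21.58), Fam167b (10.6) and Fabp7 (3.01), all genes with every Aire-null value above TG Aire+/- thymus, and low for Cd4 (48.39 RPKM) and Cyp11a1 (0.3492 RPKM). Among other genes with every TG Aire+/- value above, it was the high Aire-null library for Spink1 (2.917 RPKM), Iapp (2.275), Bpifb1 (0.08535), Crabp1 (0.08332), Krt13 (0.0774), 4930502E18Rik (0.03189), Myt1 (0.005266) and Gm5478 (0.002271).

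Aire-/- replicate 3 stood high for Mucl1 (0.173 RPKM), Mucl2 (0.1363), Pgc (0.01072) and Nyap2 (0.004444). Aire-/- replicate 2 stood high for Gip (0.1747 RPKM), Csn1s2b (0.04546) and Gsdma2 (0.02357), Aire-/- replicate 1 for Ifit1 (9.883 RPKM), and TG Aire-/- replicate 2 for Prl2c2 (0.08152 RPKM). Several of these, such as Gip, Pgc and Crabp1, are single values above 0 among libraries listed at 0.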

How the results depend on the processing

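The count of genes that fell, 57, was 54 with upper-quartile scaling, 60 with robust variances, 71 with the Aire-null samples as 1 group, 76 with a pseudocount of 0.1 and 41 with sex as a covariate. It was 0 of 12568 genes with a filter of 1 RPKM in 3 samples and 26 of 16748 with a filter of 0.1 RPKM (23 shared), where fewer genes were tested, and 23 without the intensity trend, where the cause was not tested. Leaving out each library gave 29 to 87. Genes that rose numbered 0, and 0 to 3 with a library left out. Between TG Aire-/- and Aire-/- thymus 3 genes were called with a pseudocount of 0.1, 2 with either filter and 0 to 17 with a library left out. Genes with all TG Aire+/- values above numbered 336 with scaling, 143 with a gap of 0.1 RPKM, 78 with the filter of 1 RPKM and 448 to 725 with a library left out. Those with all Aire-null values above numbered 52, 7, 16 and 59 to 174 under the same settings. Of the 27 tissue list genes that fell, the count was 30 with a pseudocount of 0.1, 0 and 16 with the filters, 14 without the trend and 17 to 33 with a library left out. With the replicate number as a block 29 genes fell, 19 of them on tissue lists. Libraries of the same number correlated between −0.183 and 0.766 in their deviations from group means, so the numbers were not taken to pair the samples. Tgfbr2 turned to −0.0714 without TG Aire-/- replicate 1 and −0.0446 without TG Aire+/- replicate 1, and reached 0.3255 without Aire-/- replicate 1 (adjusted p = 1). Depth limits genes near 3 reads, which is up to 0.067 RPKM on a gene of 2000 bases and more on a shorter one. Lcn8, Dcpp2 and Defa33, among the genes that fell, have 651, 732 and 426 exon bases, so for them this limit lies higher.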
